A study of Mus musculus with 4 samples.

Results

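The insulin-like growth factor (IGF) genes were examined in mouse tissue taken from around the femoral artery, named perivascular adipose tissue (PVAT) in the labels. The members were taken by symbol as the ligand, receptor and binding protein genes *Igf1*, *Igf2*, *Igf1r*, *Igf2r*, *Igfbp2*, *Igfbp3*, *Igfbp4*, *Igfbp5*, *Igfbp6* and *Igfbp7*, and 9 of these 10 symbols had a row among the 12661 genes listed. *Igfbp2* was not analysed here. The animals were ovariectomized wild type C57BL/6 females, 11 weeks old by the labels, and all 4 libraries share this background. In the injury group (2 libraries) a wire of 0.38 mm had been passed into the femoral artery, in the sham group (2 libraries) only the sham operation had been done, and the tissue was taken after 48 h in both. No label says whether a library is 1 animal or a pool, so p-values measure the spread between these libraries, which may be technical. All 8 adipocyte markers listed (among them *Adipoq*, *Plin1* and *Lipe*) had rows in the table. This does not check the tissue, since all 10 macrophage and all 8 endothelial markers had rows too.

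IGF1 and IGF2 are small secreted proteins related to insulin. Both act on the IGF1 receptor, a tyrosine kinase that drives growth and survival of many cells, among them preadipocytes and arterial smooth muscle cells. The IGF2 receptor is the cation-independent mannose 6-phosphate receptor: it takes up and clears IGF2 and carries newly made enzymes to lysosomes. The IGF binding proteins hold the ligands in blood and matrix, prolong their life and limit or direct their access to the receptor, and proteases release the ligands from them. *Igf2* and *Igf2r* are imprinted in the mouse, *Igf2* being expressed mainly from the paternal and *Igf2r* from the maternal copy.

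The values deposited for these libraries are signed scores, 1 per gene and library, centred gene by gene on a reference that is not the mean of the 4 libraries. They behave as values on a log scale whose base was not settled, so differences are stated in the units of the table, called deposited units, and none is turned into a fold change. A value of 0 is not an absence of transcript, levels of different genes cannot be compared, and read depth is unknown. Injury was compared with sham by limma over all 12661 genes with Benjamini-Hochberg adjustment, and a gene is named as called at an adjusted p-value under 0.05. An exact permutation test of 2 against 2 libraries cannot go below p = 0.333, so every call rests on limma's sharing of variance between genes.

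Start site sequences are shown for the members whose groups did not overlap and that lay lower after injury (*Igf1r*, *Igfbp4*, *Igfbp5*, *Igfbp7*). They are also shown for *Igf2r*, the receptor gene that lay higher, but not for *Igfbp3*, which lay higher too. The sequences shown allow these genes to be compared at their promoters. Each is the 250 bases before a RefSeq start site in GRCm38.p6, 5′ to 3′ on the gene's strand. Capitals mark letter matches to 4 motifs, each sought on both strands. The GC box was spelled GGGCGG. The TATA box near the start site of many genes was spelled TATAAA. The palindrome of the CLEAR element, which is found at many lysosomal genes, was spelled TCACGTGA. The fourth was the CArG box of muscle genes. The windows are chr7:67952007-67952256 on the plus strand for *Igf1r*, chr17:12769707-12769956 on the minus strand for *Igf2r*, chr11:99040994-99041243 on the plus strand for *Igfbp4*, chr1:72874866-72875115 on the minus strand for *Igfbp5* and chr5:77408046-77408295 on the minus strand for *Igfbp7*.
*Igf1r*: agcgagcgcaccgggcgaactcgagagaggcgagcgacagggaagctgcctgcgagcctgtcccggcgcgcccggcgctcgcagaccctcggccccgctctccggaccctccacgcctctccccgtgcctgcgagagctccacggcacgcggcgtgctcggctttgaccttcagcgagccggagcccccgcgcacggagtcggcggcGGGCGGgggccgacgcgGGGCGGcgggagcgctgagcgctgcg
*Igf2r*: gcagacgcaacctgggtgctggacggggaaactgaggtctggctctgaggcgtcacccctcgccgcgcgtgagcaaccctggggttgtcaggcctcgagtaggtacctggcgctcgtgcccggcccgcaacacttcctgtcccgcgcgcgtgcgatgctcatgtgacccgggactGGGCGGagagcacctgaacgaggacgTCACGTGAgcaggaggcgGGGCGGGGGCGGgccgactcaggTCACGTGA
*Igfbp4*: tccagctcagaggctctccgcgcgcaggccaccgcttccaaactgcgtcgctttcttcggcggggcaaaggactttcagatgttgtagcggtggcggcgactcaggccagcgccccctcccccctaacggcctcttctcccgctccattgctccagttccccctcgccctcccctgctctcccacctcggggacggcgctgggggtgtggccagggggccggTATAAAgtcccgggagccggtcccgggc
*Igfbp5*: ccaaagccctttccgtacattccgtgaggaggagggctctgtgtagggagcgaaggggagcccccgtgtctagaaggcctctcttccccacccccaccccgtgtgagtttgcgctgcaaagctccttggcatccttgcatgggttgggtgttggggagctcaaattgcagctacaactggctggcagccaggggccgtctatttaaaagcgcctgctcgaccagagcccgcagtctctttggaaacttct
*Igfbp7*: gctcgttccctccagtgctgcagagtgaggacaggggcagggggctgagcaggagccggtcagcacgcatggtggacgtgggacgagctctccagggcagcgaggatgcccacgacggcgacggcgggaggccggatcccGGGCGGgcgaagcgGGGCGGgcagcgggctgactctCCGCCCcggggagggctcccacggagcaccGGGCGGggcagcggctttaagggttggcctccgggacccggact

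These windows differ in their make-up. *Igf2r* holds 2 CLEAR palindromes, at bases -49 to -42 and -8 to -1 from the start site, where 0.79% of all 32851 windows hold 1 or more and 11 windows hold 2 or more. It also holds 3 GC boxes, a motif found in 32.74% of all windows. *Igf1r* has 2 GC boxes and 42 CpG dinucleotides, more than 99.1% of windows. *Igfbp7* has 4 GC boxes and 26 CpG dinucleotides. *Igfbp4* is one of the 12.37% of windows with a TATA box, at -28 to -23. *Igfbp5*, with 10 CpG dinucleotides, holds none of the 4 motifs. The same is true of the windows of *Igf1* and *Igfbp3*, which are not shown and hold 5 and 32 CpG dinucleotides. The CArG box, present in 1.47% of windows, was found among the members only at 1 of the 4 *Igf2* start sites. The 2 CLEAR palindromes were sought after the *Igf2r* window had been read, and a match to letters is not a measured site of binding.

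**Figure D1:**
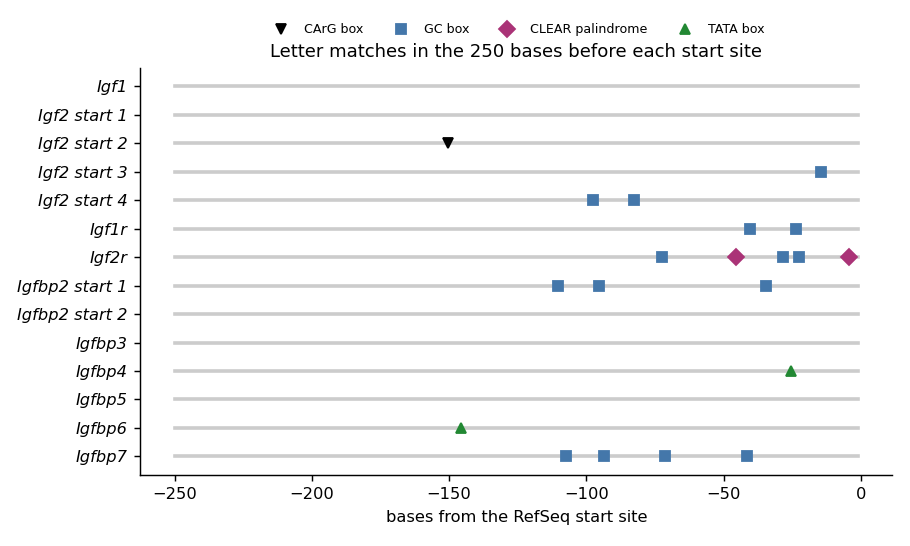
Letter matches to 4 motifs in the 250 bases before each RefSeq start site of the 10 genes (x axis, bases from the start site; 1 row per start site, 14 in all). *Igf2r* is the only row with CLEAR palindromes, and *Igfbp7* has 4 GC boxes. *Igfbp5* has no match, and neither have *Igf1*, *Igfbp3*, *Igf2* start 1 and *Igfbp2* start 2.

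Neither ligand was called, and the 2 ligands varied between libraries in different ways. *Igf1* (chromosome 10 of mm9, 87321010 to 87399792) was at 0.11 and -0.10 in the sham libraries and at -0.25 and 0.28 in the injury libraries. The injury values lie on both sides of the sham values, and the difference of 0.0086 (standard error 0.22, 95% interval -0.53 to 0.55, adjusted p = 0.984 from limma) left room for a change in either direction. Its sign turned to negative without sham replicate 2 (-0.09) and without injury replicate 2 (-0.26). *Igf2* (chromosome 7 of mm9, 149836673 to 149852721) was at 1.72 and 0.02 after sham operation and at -0.09 and 0.16 after injury. Sham replicate 1 stands alone, and the other three libraries lie close together. The gap of 1.69 between the sham libraries was larger than that of 99.9% of all genes. The difference of -0.84 (standard error 0.53, 95% interval -2.17 to 0.50, adjusted p = 0.353 from limma) was therefore within the spread between replicates, and without sham replicate 1 it was 0.0081. Markers of skeletal muscle were also highest in sham replicate 1, as were those of smooth muscle (1.59 against 0.88 in sham replicate 2), fibroblasts (0.29 against -0.01) and Schwann cells (0.34 against 0.15). The skeletal muscle mean over the 4 markers listed was 0.89 there, -0.04 in sham replicate 2, and -0.32 and -0.43 in the injury libraries. The part of these cell types in the *Igf2* value was not tested. *H19*, the imprinted non-coding RNA gene next to *Igf2* (named after its values were seen), was likewise at its highest in sham replicate 1 (-0.08), with -0.96 in sham replicate 2 and -1.18 and -1.38 after injury (adjusted p = 0.168 from limma).

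Neither receptor gene was called. Their injury values lay on opposite sides of their sham values, and their injury libraries were the closest of all members. *Igf1r* (chromosome 7 of mm9, 75097713 to 75371484) was at 0.45 and 0.50 after sham operation and at 0.18 and 0.17 after injury. Both injury libraries were lower than both sham libraries. *Igf2r* (chromosome 17 of mm9, 12875272 to 12962530) was at -0.04 and 0.03 after sham operation and at 0.27 and 0.25 after injury, and here both injury libraries were higher. The gap between the injury libraries was 0.010 for *Igf1r* and 0.016 for *Igf2r*, smaller than in all but 3.07% and 4.72% of genes. Neither difference passed the test. That of *Igf1r* was -0.30 (standard error 0.13, 95% interval -0.63 to 0.03, adjusted p = 0.202 from limma), and that of *Igf2r* was 0.26 (standard error 0.13, 95% interval -0.07 to 0.59, adjusted p = 0.254 from limma). Taken within each library, *Igf2r* minus *Igf1r* was -0.49 and -0.47 after sham operation and 0.08 and 0.08 after injury. This relation of the receptor genes to each other differed by 0.56 units between groups, and no test was run on it. It joins both differences above, so its lack of overlap follows from theirs and is not a separate result. *Airn*, the non-coding RNA gene that overlaps *Igf2r* on the opposite strand, can share reads with it if the counting ignored strand, which the sources used here do not state.

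**Figure D2:**
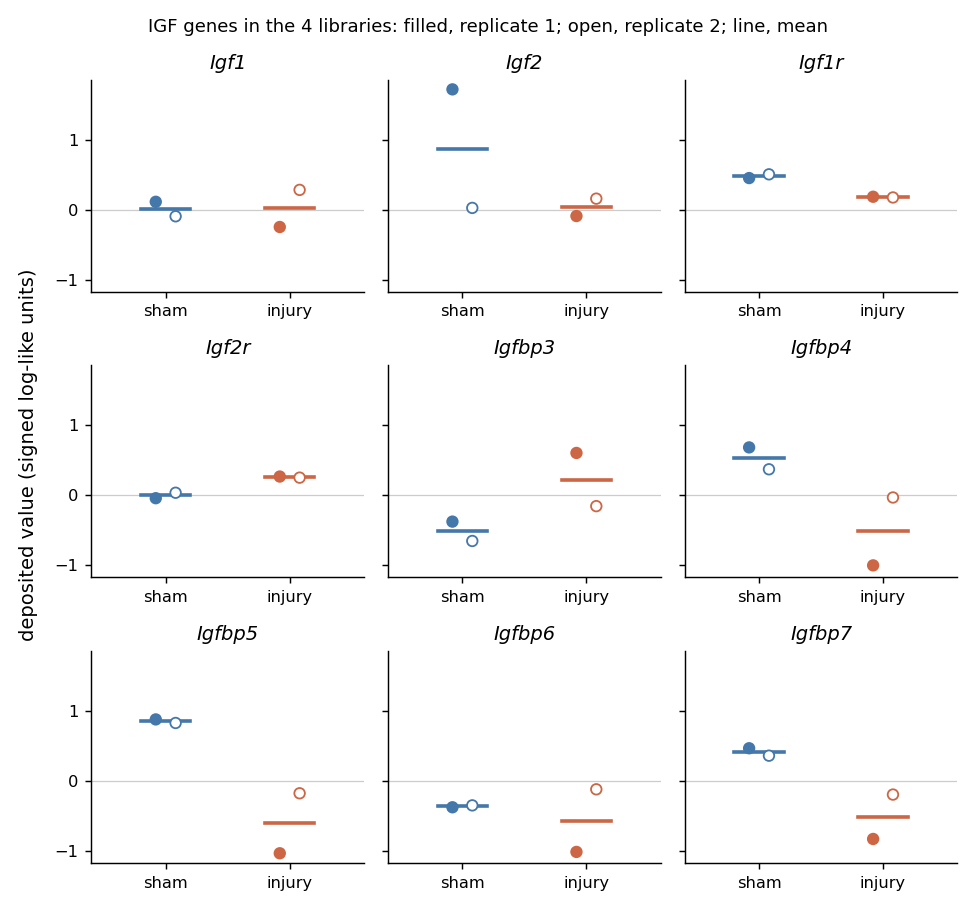
Deposited value (signed log-like units, y axis) of each of the 9 genes in the 2 sham and 2 injury libraries, with filled points for replicate 1, open points for replicate 2 and a line at the group mean. *Igfbp5* runs from 0.82 to 0.87 after sham operation and lies below 0 in both injury libraries, while 1 sham library of *Igf2* stands apart at 1.72.

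Of the binding protein genes, *Igfbp5* fell after injury, *Igfbp4* and *Igfbp7* had lower values in both injury libraries without passing the test, *Igfbp3* had higher values in both, and *Igfbp6* overlapped between groups. IGFBP5 binds to matrix and cell surfaces and is made by mesenchymal and smooth muscle cells. *Igfbp5* (chromosome 1 of mm9, 72904506 to 72921458) was at 0.87 and 0.82 in the sham libraries and at -1.04 and -0.18 in the injury libraries. The sham libraries are nearly alike, and the injury libraries are both lower but far apart. The difference was -1.46 (standard error 0.29, 95% interval -2.18 to -0.73, adjusted p = 0.0468 from limma), with 1.03% of genes having a lower one. In bulk tissue, fewer cells that make a transcript and less transcript per cell cannot be told apart. The call stood close to the threshold, and the difference ranged from -1.89 without injury replicate 2 to -1.03 without injury replicate 1. It was lost when sham replicate 1 (adjusted p = 0.238), sham replicate 2 (0.163) or injury replicate 1 (0.0532) was left out of the limma fit and with a robust variance prior (0.0504), over a range of 0.0073 to 0.238 among the alternatives.

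*Igfbp4*, whose product is cleaved by the protease PAPP-A, lies on chromosome 11 of mm9 from 98902558 to 98913969. It was at 0.68 and 0.37 after sham operation and at -1.003 and -0.03 after injury. Injury replicate 1 was far lower than the other three, and injury replicate 2 was also below both sham libraries. The difference was -1.04 (standard error 0.33, 95% interval -1.88 to -0.21, adjusted p = 0.113 from limma). Without injury replicate 1 it shrank to -0.56, and without injury replicate 2 it grew to -1.53. *Igfbp7*, a relative that binds IGFs only weakly and is typical of blood vessels, lies on chromosome 5 of mm9 from 77778265 to 77837070. It was at 0.46 and 0.36 after sham operation and at -0.83 and -0.20 after injury. The groups did not overlap, and the difference was -0.93 (standard error 0.23, 95% interval -1.51 to -0.34, adjusted p = 0.0715 from limma). Leaving out injury replicate 1 gave -0.61, and leaving out injury replicate 2 gave -1.24. The annotated *Igfbp7* gene overlaps *Polr2b* on the opposite strand.

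*Igfbp3* encodes the main carrier of IGFs in blood and lies on chromosome 11 of mm9 from 7106089 to 7113926, 3539 bases from *Igfbp1*. It was at -0.38 and -0.65 after sham operation and at 0.60 and -0.16 after injury. Both injury libraries were higher, replicate 1 by far the more. The difference of 0.74 (standard error 0.28, 95% interval 0.05 to 1.43) did not pass the test (adjusted p = 0.151 from limma), and it shrank to 0.36 when injury replicate 1 was left out and grew to 1.12 when injury replicate 2 was. *Igfbp6*, whose product prefers IGF2 over IGF1, lies on chromosome 15 of mm9 from 101974793 to 101979942. It was at -0.38 and -0.35 after sham operation and at -1.02 and -0.12 after injury. Its sham libraries lay between its injury libraries, so the difference of -0.20 (standard error 0.30, adjusted p = 0.694 from limma) gave no direction, and it was 0.24 without injury replicate 1.

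Of the 9 members, 1 was called lower and 0 higher by limma, where 3.67% of all genes were called lower, 3.76% higher and 7.43% in either direction. Before adjustment, 4 members (*Igfbp3*, *Igfbp4*, *Igfbp5* and *Igfbp7*) and 29.5% of all genes had a p-value under 0.05. In 4 members both injury libraries were below both sham libraries, against 30.3% of all genes, and in 2 they were above, against 31.6%. The median difference of the members was -0.30, and that of all genes was 0.0085. Without injury replicate 2 the number of members called was 4, with *Igfbp3* (adjusted p = 0.0245), *Igfbp4* (0.0129) and *Igfbp7* (0.0139) added to *Igfbp5* (0.0073 from limma), and it was 0 when any other single library was left out.

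**Figure D3:**
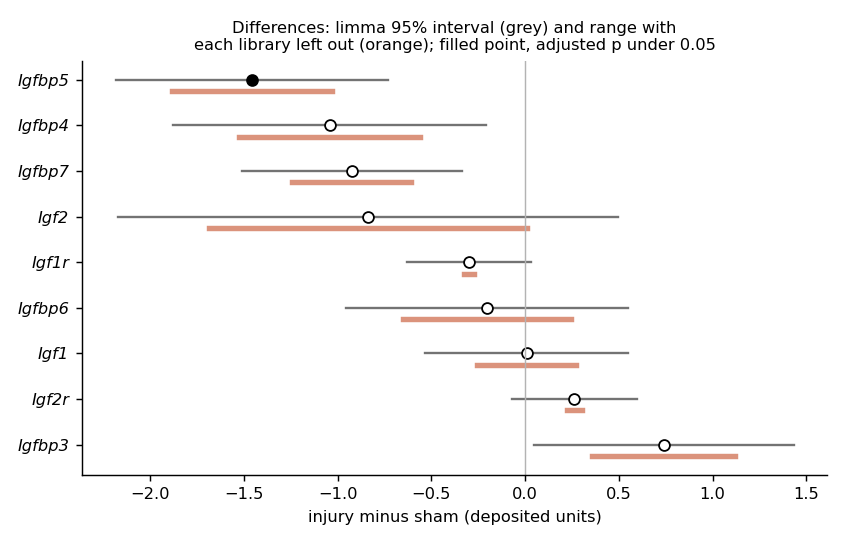
Injury minus sham for each of the 9 genes (x axis, deposited units), with limma's 95% interval in grey and the range of the difference with each library left out in orange. Only *Igfbp5* is filled as called, and the orange ranges of *Igf1*, *Igf2* and *Igfbp6* cross 0.

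**Figure D4:**
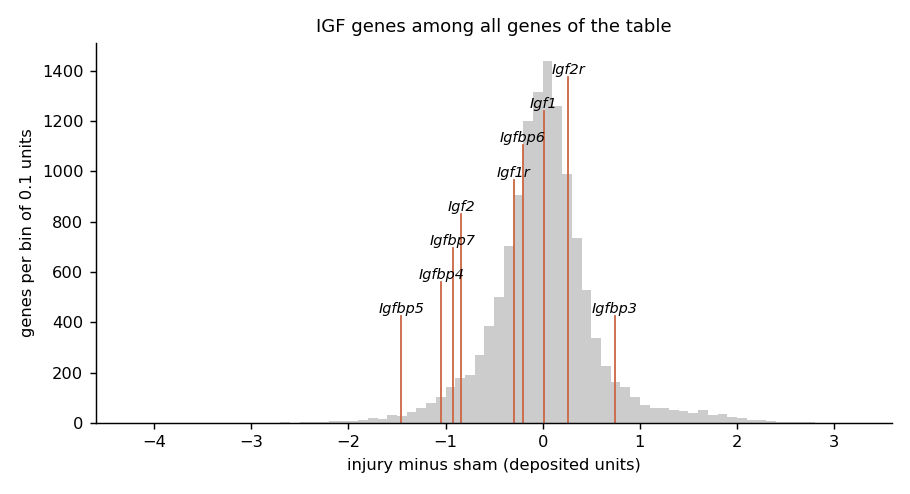
Differences of all 12661 genes (x axis, injury minus sham in deposited units; y axis, genes per bin) with the 9 IGF genes marked by lines whose heights only separate the names. *Igfbp5* at -1.46 and *Igfbp3* at 0.74 are the lowest and the highest of the members.

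Among the members, the injury libraries differed from each other most in the binding protein genes. The gap between injury replicate 1 and injury replicate 2 was -0.97 for *Igfbp4*, -0.89 for *Igfbp6*, -0.86 for *Igfbp5*, -0.63 for *Igfbp7* and 0.76 for *Igfbp3*. In size these exceeded the gaps of 91.5% (*Igfbp7*) to 97.4% (*Igfbp4*) of genes, whose median was 0.19. In the sham group the same genes had gaps of -0.03 to 0.31. Injury replicate 1 also stood farther from the sham libraries in markers of other cells. Smooth muscle markers (7 in the table) had a mean of 1.59 and 0.88 after sham operation, -1.20 in injury replicate 1 and -0.19 in injury replicate 2. All 7 were lower in both injury libraries, against 30.3% of all genes, and 4 were called lower, against 3.67% (3.76% were called higher). Fibroblast markers (12 listed, 5 called lower) had means of 0.29 and -0.01 after sham operation and -0.72 and -0.28 after injury. Macrophage markers (10 listed, 5 called higher) had means of -1.09 and -0.97 after sham operation and 0.60 and 0.0016 after injury. Endothelial markers (8 listed, 2 called lower) had means of 0.63 and 0.69 after sham operation and -0.22 and -0.16 after injury. Here the means of the injury libraries were alike, while single markers differed in both directions. In injury replicates 1 and 2 *Kdr* was at 0.71 and 0.34, and *Cldn5* was at -0.46 and -0.03. Adipocyte markers (8 listed, 1 called lower) had means of 0.17 and 0.36 after sham operation and -0.03 and 0.20 after injury. Of the remaining markers, 1 of 6 for pericytes and 1 of 6 for Schwann cells were called lower, 0 of 4 for skeletal muscle and 0 of 8 for proliferation. These counts depend on single libraries. Without either sham library 0 smooth muscle, fibroblast, macrophage, endothelial and adipocyte markers were called. Without injury replicate 1 the number was 1 for smooth muscle, 0 for fibroblasts, 2 for macrophages, 1 for endothelium and 0 for adipocytes, and with the replicate number as a block it was 0, 1, 4, 2 and 0. Without injury replicate 2 it was 6, 7, 8, 3 and 2. How much of the binding protein values comes with these cell types was not tested.

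**Figure D5:**
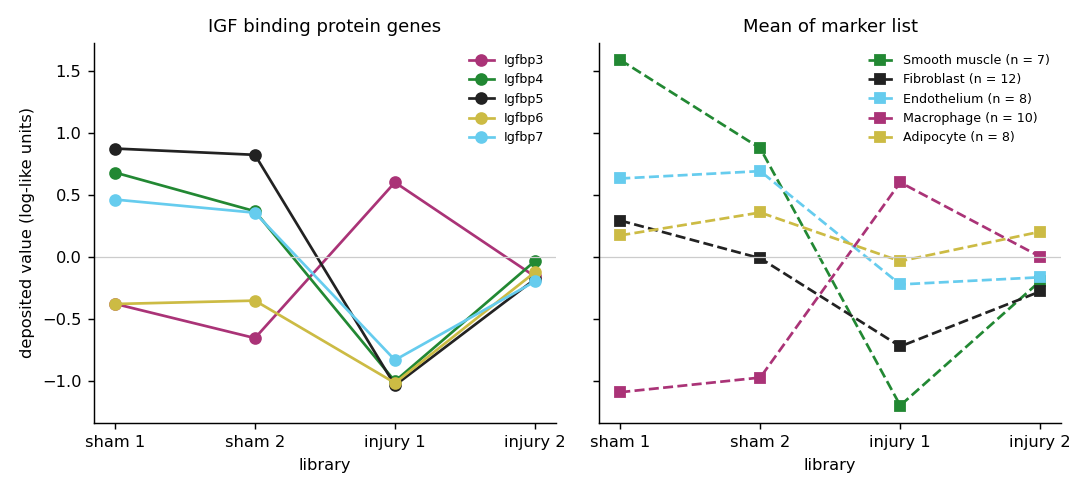
Deposited values (y axis, log-like units) of the 5 binding protein genes (left) and mean values of 5 marker lists (right) in the 4 libraries (x axis; lines join points of 1 series and give no order). *Igfbp4*, *Igfbp5* and *Igfbp7* are highest in the sham libraries and lowest in injury replicate 1, as are the smooth muscle and fibroblast lists. The endothelial list is nearly level between the injury libraries. *Igfbp3* is highest in injury replicate 1, as is the macrophage list.

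Among genes outside the lists, those whose pattern over the 4 libraries was nearest to *Igfbp5*, the called member, were *Glb1l2*, *Hspb7* and *Opn3*. Likeness was measured as the Euclidean distance of gene-centred values over 4 libraries, which was 0.095 for *Glb1l2*, 0.149 for *Hspb7*, a small heat shock protein gene of muscle, and 0.150 for *Opn3*, an opsin gene. Their differences were -1.50, -1.52 and -1.32 units. With 4 libraries many genes share a shape, and the choice by likeness makes these differences no separate evidence.

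The next list holds proteases that cleave IGF binding proteins (*Pappa2*, *Htra1*, *Htra3* and *Ctsd*), inhibitors of PAPP-A (*Stc1* and *Stc2*) and the acid-labile subunit gene *Igfals*. Of these 7 genes 1 fell, 0 rose and 6 did not pass the test, where 3.67% of all genes were called lower, and the median difference was -0.72. Both injury libraries were below both sham libraries in 5 of the 7, against 30.3% of all genes, namely in both inhibitors, *Igfals*, *Htra1* and *Htra3*. *Stc1*, the gene of stanniocalcin 1, an inhibitor of PAPP-A, was at 0.19 and 0.64 after sham operation and at -0.60 and -0.55 after injury, with no overlap. The fall was called by limma (-0.98, standard error 0.19, adjusted p = 0.0444). The call was lost without any one library (adjusted p = 0.0522 to 0.176 from limma) and with the replicate number as a block (0.0510). *Stc2*, its close relative (named after its values were seen, as are *Ctsd*, *Ghr*, *Prlr*, *Nov*, *Ctgf*, *Cyr61*, *Wisp1*, *Wisp2*, *Esm1* and *Plagl1* below, and the other proteases of this list), was at 0.20 and 0.22 after sham operation and at -0.32 and -0.70 after injury (difference -0.72, adjusted p = 0.0664). *Igfals*, the acid-labile subunit that joins IGFBP3 and its ligand in blood, was at 1.06 and 0.40 after sham operation and at -0.15 and -0.29 after injury (difference -0.95, adjusted p = 0.0718 from limma). *Ctsd*, a lysosomal protease gene, was the one gene of this list with both injury libraries higher, at -0.57 and -0.43 after sham operation and 0.36 and 0.11 after injury (difference 0.74, adjusted p = 0.0518 from limma).

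None of the 9 genes of the growth hormone axis, which drives *Igf1* transcription, was called by limma, against 7.43% of all genes. *Igf1* itself is counted among the 9. Of these genes 3 had an unadjusted p-value under 0.05, near the 29.5% of all genes. The lowest p-value was that of *Igfals*. The receptor gene *Ghr* was at 0.21 and 0.39 after sham operation and at -0.84 and -0.23 after injury (difference -0.83, adjusted p = 0.0853 from limma), and *Prlr*, the prolactin receptor gene, had a difference of -0.75 (adjusted p = 0.0802). For *Igf1* itself the difference was 0.0086, as given above. Of 32 genes of insulin and IGF signalling, counting *Igf1r*, 0 were called by limma, against 7.43% of all genes. An unadjusted p-value under 0.05 was found for 5 of them, a smaller share than the 29.5% of all genes. The median difference was -0.06.

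Among 10 inhibitors of insulin and IGF signalling 1 rose, 0 fell and 9 did not pass the test, where 3.76% of all genes were called higher. *Inpp5d*, which encodes the phosphatase SHIP1 and is expressed chiefly in blood cells, was at -0.94 and -0.71 after sham operation and at 0.67 and 0.04 after injury. In 9 of 10 macrophage markers both injury libraries were also higher, against 31.6% of all genes, and in *Mertk* the groups overlapped. Of the 10 markers 5 were called higher, against 3.76% of all genes. The part of macrophages in the *Inpp5d* values was not tested. The rise of *Inpp5d* was called by limma (1.18, standard error 0.24, adjusted p = 0.0493). The call was lost without sham replicate 1 (0.258), sham replicate 2 (0.151) or injury replicate 1 (0.0789), with the replicate number as a block (0.0633) and with a robust variance prior (0.0523). Of 8 genes of mannose 6-phosphate sorting, the route served by *Igf2r* and counting that gene, 0 were called by limma, against 7.43% of all genes. Of these 8 genes 1 had an unadjusted p-value under 0.05, against 29.5%. This was *Gga3*, an adaptor gene, at -0.08 and -0.14 after sham operation and 0.46 and 0.25 after injury (difference 0.47, adjusted p = 0.108 from limma). *Igf2bp2*, the one IGF2 mRNA binding protein gene in the table, was at -0.30 and -0.58 after sham operation and at 0.29 and -0.24 after injury (difference 0.46, adjusted p = 0.231 from limma).

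Of 14 genes listed as imprinted, counting *Igf2* and *Igf2r*, 1 fell, 0 rose and 13 did not pass the test. Over all genes 3.67% were called lower, and the median difference of the 14 genes was -0.29. Whether each of them is imprinted in this tissue was not tested. The gene that fell was *Dcn*, the proteoglycan decorin and a fibroblast marker as well, at 0.37 and 0.07 after sham operation and at -0.84 and -0.72 after injury (difference -0.996, adjusted p = 0.0330 from limma). Its call was lost without sham replicate 1 (0.199), sham replicate 2 (0.114) or injury replicate 1 (0.0784) and with the block (0.0506). *Plagl1*, a zinc finger gene of this network, was at 0.18 and 0.83 after sham operation and at -1.10 and -0.32 after injury (difference -1.22, adjusted p = 0.0830 from limma). Of 8 other genes whose products hold an IGF binding protein domain, 1 fell and 0 rose, where 3.67% of all genes were called lower and 3.76% higher. This was *Crim1*, a transmembrane protein gene, at 0.83 and 1.08 after sham operation and at -0.32 and -0.20 after injury. The difference of -1.21 (standard error 0.155, adjusted p = 0.0289 from limma) passed the test, but the call was lost without sham replicate 1 (0.176), sham replicate 2 (0.116) or injury replicate 1 (0.0533). The 5 matricellular genes of the CCN family in this list were not called. Their differences were -2.28 for *Nov* (adjusted p = 0.0561 from limma), -1.08 for *Ctgf* (0.120), -0.73 for *Cyr61* (0.123), -0.38 for *Wisp2* (0.259) and -0.0024 for *Wisp1* (0.997), whose groups overlapped. *Esm1*, an endothelial proteoglycan gene of the list, went the other way without a call, at -1.15 and -0.60 after sham operation and 0.09 and 0.16 after injury (difference 0.999, adjusted p = 0.0530 from limma). *Ctgf* had its lowest value, -1.21, in injury replicate 1 and -0.12 in injury replicate 2, the order seen in *Igfbp4*, *Igfbp5* and *Igfbp7*.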

How the data were processed

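RNA of the outer tissues around the femoral artery (480 ng of total RNA a library) was made into libraries with a stranded mRNA kit and sequenced by the authors. By the paper's methods and the submitters' processing notes, the authors used FastQC 0.11.8, Cutadapt 1.18, Trimmomatic 0.39, STAR 2.6.0a against mm9, featureCounts and DESeq2 1.28.0 on R 3.6.0. The deposited values are signed scores, not counts. How they were made from counts, and which filter left 12661 genes, is not given in the sources used here, so no filter on low values was applied and depth gives no interval. Members and gene lists were chosen with earlier results of these data known. limma 3.58.1 (R 4.3.3; lmFit and eBayes, group as the only term) was run on all genes with Benjamini-Hochberg adjustment, a threshold of 0.05 and 2 residual degrees of freedom, to which it added 3.48 prior ones. Lists are described by counts and medians. All members are named, and of the pathway lists the called genes, or in a list without calls the gene with the lowest p-value. One gene that this rule names is not reported here. For a called member the 3 nearest genes outside the lists are named. Alternatives were quantile normalization, a robust variance prior, fits without each library in turn, the replicate number as a block, scaling of the columns to a common spread, an adjusted p-value threshold of 0.1, identical rows counted once and a minimum difference of 1 unit. Gene coordinates are those of GENCODE vM1 on NCBIM37, the assembly of mm9. Start site windows are from RefSeq on GRCm38.p6 and were matched for 10 of 10 symbols. Tables and plots were made with pandas 2.3.3, numpy 2.4.6 and matplotlib 3.10.9 in Python 3.11.15.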

Additional observations from a re-analysis of the deposited data

How the results depend on the processing

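With 2 libraries per group, calls near the threshold depend on single libraries, and where 1 library of a group is left out the lone one is assumed to vary like the others. The number of members called was 1 (lower) and 0 to 4 when each library was left out (0 to 3 lower, 0 to 1 higher). It was 0 with a robust variance prior and 2, both lower, at an adjusted p-value under 0.1. The differences that changed sign were those of *Igf1* (-0.09 without sham replicate 2 and -0.26 without injury replicate 2, over a range of -0.26 to 0.27), *Igf2* (0.0081 without sham replicate 1, range -1.68 to 0.0081) and *Igfbp6* (0.24 without injury replicate 1, range -0.65 to 0.24). In the other alternatives the members kept their direction, and the causes of these changes were not tested. Over all genes, 941 were called by limma (476 higher, 465 lower), and 0 to 1790 when each library was left out (0 to 943 higher, 0 to 847 lower), with 0 without sham replicate 1, 1 without sham replicate 2, 284 without injury replicate 1 and 1790 without injury replicate 2. In the fit without sham replicate 1, 1960 genes had a p-value under 0.05 before adjustment. At an adjusted p-value under 0.1 the count was 2317 (1166 higher, 1151 lower), and with a minimum difference of 1 unit 591 (271 lower), as these thresholds imply. Of 82 pathway genes 4 were called. This was 0 to 10 with each library left out, 8 after quantile normalization, 8 with columns scaled to one spread, 16 at 0.1 and 2 with the minimum difference. Of 69 marker genes 19 were called, 0 to 31 with each library left out and 30 at 0.1. The labels give both groups replicate numbers 1 and 2 but no shared origin. Deviations of same-numbered libraries from their group means had a correlation of -0.094 across genes. With 2 libraries per group this cannot show whether libraries of the same number shared a batch or an origin. With the replicate block 684 genes were called, 303 of them lower, and 7 marker genes. *Igfbp5* kept its call with the block (adjusted p = 0.0473 from limma).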
